A study of Rattus norvegicus with 15 samples.

Results

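The ductus arteriosus of newborn rats was compared with the ductus of fetuses whose mothers had breathed oxygen. The newborn ductus was taken 3 h after vaginal delivery. The oxygen ductus came from fetuses of gestation day 19, delivered by caesarean section after the dam had spent 3 h in 100% O2. RNA of either state went onto 1 array of each of 3 Affymetrix rat expression chips (A, B and C). The comparison thus rests on 6 of the 15 arrays of the series, 1 per side and chip. The arrays were chosen by their titles. The other 9 arrays hold the ductus of day 19 fetuses of dams in normal air (the fetal ductus, used here as a point of reference), the aorta of such fetuses and the aorta of newborns 3 h after birth. The labels name no strain or genotype and no number of animals behind an array. For B and C the description is the same text whatever the state, so the titles give the state. One title of the chip A newborn aorta speaks of hours after coitum, against its description as newborn, which was followed. Newborn and oxygen ductus differed in more than birth. They differed in age, in the way of delivery, in the passage to air breathing, and in the oxygen bubbled through the dissection medium, which was 12.5% for newborns and 2.5% for fetuses. The parts these play cannot be told apart. There were no replicate arrays, so no test was made and no value below carries a replicate error.

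The ductus arteriosus is the fetal vessel that carries blood from the pulmonary artery to the aorta, past the lungs. It is held open before birth by prostaglandin E2 and by low oxygen tension. After birth its smooth muscle contracts as oxygen rises and prostaglandin falls, and the wall is then remodelled until the lumen is lost. Oxygen acts on potassium and calcium channels of the muscle and on endothelin, whereas birth also brings a surge of glucocorticoid and catecholamine, a change in flow and a change in fuel supply. According to the series' design text, newborn and artificially oxygenated ductus were to be compared with the normal fetal ductus as the reference. The question is which of the differences of the newborn ductus are not seen after oxygen alone.

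Values are linear signal intensities. A signal below the median of its chip (150.0, 242 and 243 for A, B and C) was raised to that floor before ratios were taken, and folds against a floored signal are given with the words "at least". Where a gene had several probe sets, the brightest stood for it. For 7541 of 10969 named genes this set exceeded the floor in the newborn, the oxygen ductus or both. All arrays had been scaled to one mean (a trimmed mean of 500.32 to 500.90). On the oxygen ductus arrays the control probe sets at the 5' end of a transcript were dim relative to those at the 3' end. The 5' over 3' ratio of the actin control was 0.307 to 0.393 on these 3 arrays against 0.662 to 0.840 on the 12 others. For Gapdh it was 0.401 to 0.592 against 0.633 to 0.793, and for hexokinase 0.0800 to 0.291 against 0.210 to 0.405. The oxygen arrays also had fewer probe sets above the floor, 46.9% to 48.4% against 49.5% to 51.8%. The newborn arrays were not low in these ratios, so the 5' ratio differs between the sides compared. Its part in the results below was not tested, and the signal of the fetal ductus, whose 5' controls were not low, is given beside that of most genes described for this reason. Ranges over probe sets are given where they disagree or spread widely.

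**Figure D1:**
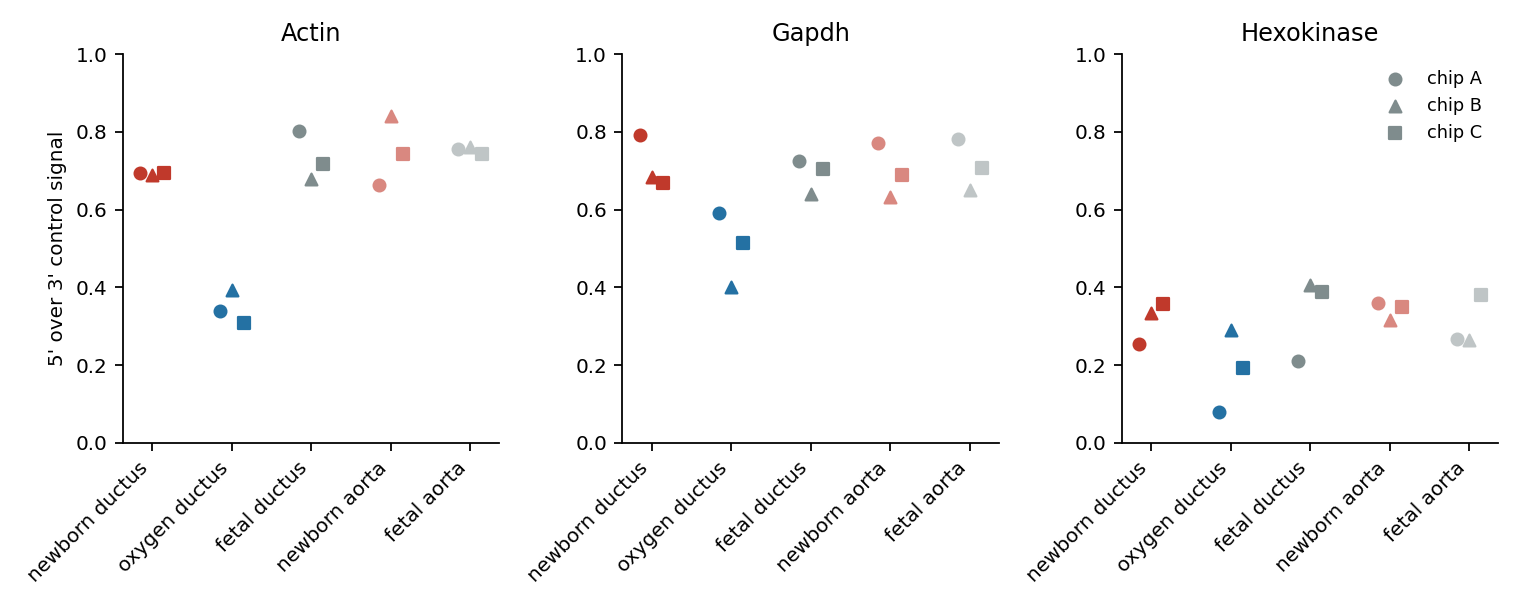
The 5' over 3' signal ratio of 3 control transcripts is plotted for each of the 15 arrays, by state on the horizontal axis and by chip (circle A, triangle B, square C). The 3 oxygen ductus arrays lie at 0.307 to 0.393 for actin, below all 12 other arrays (0.662 to 0.840), and the hexokinase values overlap.

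Of the 7541 genes compared, 192 (2.55%) had a signal 2-fold or more above that of the oxygen ductus in the newborn, and 243 (3.22%) one 2-fold or more below it. At 1.5-fold the counts were 783 higher (10.4%) and 1102 lower (14.6%). The median log2 ratio over all genes was -0.09 and its robust standard deviation 0.48. With the fetal ductus in place of the oxygen ductus, 135 genes were at least 2-fold higher in the newborn and 131 lower. Oxygen against fetal ductus gave 36 higher and 57 lower, again over these genes. Genes above the floor only in the fetal ductus were not counted. These comparisons share arrays, so their counts are linked by construction. For 1861 genes with more than 1 probe set above the floor on both arrays, the brightest and the next probe set were set against each other. The standard deviation of the difference between their log2 ratios, over the square root of 2, was 0.45. This is the probe set error of a ratio, and the difference itself spread more widely. Both probe sets were read on the same 2 arrays, so variation between animals or RNA samples is not in it. Of 118 such genes whose brightest probe set was 2-fold apart, the next probe set went the same way in 93 (78.8%).

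The balance of higher and lower depended on which probe sets were read. Over all 14007 probe sets compared, 639 (4.56%) were at least 2-fold higher in the newborn and 380 (2.71%) lower. The dimmer probe sets of named genes gave 286 higher and 61 lower, while the brightest ones gave 192 and 243. The same dimmer probe sets gave 149 higher and 15 lower when the fetal ductus was set against the oxygen ductus. For those probe sets the oxygen arrays were thus low against the fetal arrays too, and a count of dim probe sets higher in the newborn cannot be read without that.

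**Figure D2:**
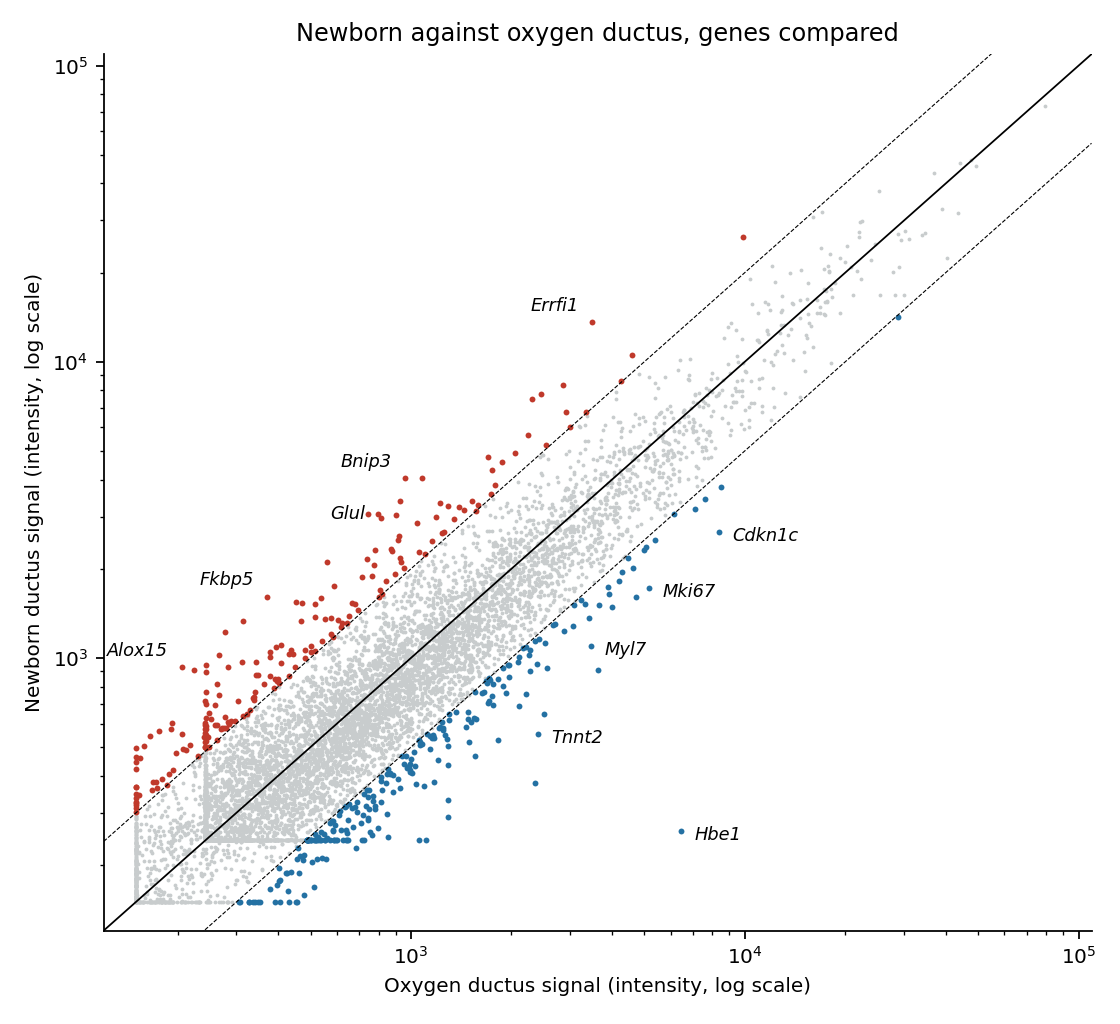
Each point is 1 of the 7541 genes compared, with its signal in the oxygen ductus on the horizontal and in the newborn ductus on the vertical axis, both log scales, signals under the floor of the chip drawn at the floor. Red points are the 192 genes at least 2-fold higher in the newborn, blue points the 243 at least 2-fold lower, and the dashed lines mark 2-fold. Hbe1 lies farthest from the diagonal.

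The fetal ductus lay nearer to the oxygen ductus for most of these genes. On a scale where the oxygen ductus is 0 and the newborn 1, the fetal ductus had a median position of 0.34 for the 192 genes higher in the newborn and was nearer to the oxygen ductus for 129 of them. For the 243 genes lower in the newborn the median position was 0.28 and the fetal ductus was nearer to the oxygen ductus for 195. Among 3682 genes bright enough in at least 1 ductus state, and with all compared probe sets going one way, 61 had the newborn ductus alone at least 2-fold higher, with the other two within 1.5-fold of each other, and 51 had it alone lower. The oxygen ductus stood alone higher for 8 and alone lower for 14.

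Among the genes with the largest differences upward in the newborn, the oxygen and fetal ductus often had like signals. Alox15, the lipoxygenase that makes hydroxy fatty acids of the 12- and 15-series from arachidonic acid, had a signal of 932 in the newborn, 206 in the oxygen and 164 in the fetal ductus, 4.54-fold higher than after oxygen. Both of its probe sets differed by more than 4-fold. Bnip3, a mitochondrial protein that directs mitophagy and a classical hypoxia-inducible gene, read 4044 in the newborn against 961 and 938 in the oxygen and fetal ductus (4.21-fold). The newborn array was far above both others for these genes, and the oxygen and fetal arrays were close to each other. Lmcd1, a LIM domain protein of muscle, read 4063, 1079 and 970.5 (3.76-fold). Isca1, a factor of iron-sulphur cluster assembly, read 2973, 815 and 815 (3.65-fold), with its 2 probe sets at log2 0.85 and 1.87. Isca1 was named by a rule that asks for oxygen and fetal signals within 1.5-fold of each other. The likeness of those signals was thus a condition for Isca1. Nupr1, a stress-induced chromatin protein, read 1019, 267 and 282 (3.82-fold).

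Others of this group had a fetal signal between the 2 states. Tppp3 had the second largest fold upward, at 1219 in the newborn, 278 in the oxygen and 857 in the fetal ductus (4.39-fold). Most of that difference lay between the oxygen and fetal arrays (3.09-fold). Ltbp2, which binds latent TGF-beta and lies along elastic fibres, read 909 in the newborn, 224 in the oxygen and 370.0 in the fetal ductus (4.06-fold), with its 2 probe sets at log2 0.25 and 2.02. Pbxip1 read 2106, 561 and 1055 (3.76-fold). Hist1h2bq, a histone H2B gene whose near-identical copies may share its probes, read 3069, 741 and 1459 (4.14-fold). For these genes part of the fold against the oxygen ductus comes from an oxygen signal under the fetal one. Genes with the oxygen ductus under the floor included Hip1r, an adaptor of clathrin-coated endocytosis (at least 3.69-fold, fetal ductus also under the floor, and a second probe set at log2 0.25), Kcnd3, a transient outward potassium channel (at least 3.32-fold, fetal ductus also under the floor), Adgrg6, an adhesion receptor (at least 2.96-fold, fetal signal 266.1), and Cfb, complement factor B (at least 2.87-fold, fetal signal 289.5).

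Genes lower in the newborn included embryonic globin, heart muscle, cell division and sterol synthesis genes, each described below, and others outside these groups. Slc22a17, a receptor for lipocalin, read 912 in the newborn, 3638 in the oxygen and 2494 in the fetal ductus (3.99-fold lower), but its 3 probe sets ran from log2 -1.997 to -0.096. Wdr24, a subunit of the GATOR2 complex upstream of mTORC1, read 330.0, 1292 and 1019 (3.92-fold lower), with 3 probe sets from log2 -1.97 to -0.38. Skp2, the ubiquitin ligase subunit that marks p27 for destruction, read 266, 795 and 815 (2.99-fold lower). Zfp266, a zinc finger gene, read 647, 2507 and 1464 (3.87-fold lower), and Polr3d, a subunit of RNA polymerase III, 529, 1829 and 943 (3.45-fold lower). For the last pair the oxygen signal stood above the fetal one, and the newborn-to-fetal step was smaller. Rpp25l was at least 2.65-fold lower and Oas1a, an interferon-induced enzyme, at least 2.62-fold lower, both with the newborn under the floor and with fetal signals of 453.7 and 616.4. The other probe set of Oas1a stood at log2 -0.28.

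Most genes of the list called glucocorticoid-responsive here were higher in the newborn. Besides known targets of the hormone, it holds the receptor gene and genes of hormone-converting enzymes. Of the 19 genes compared, 11 were at least 1.5-fold higher and 2 lower, beside 10.4% and 14.6% of all genes. The median log2 ratio was 1.05. The oxygen-over-fetal median of the list was 0.00 and the newborn-over-fetal median 0.77. Fkbp5, the co-chaperone that limits glucocorticoid receptor activity, read 1612 in the newborn, 371 in the oxygen and 438 in the fetal ductus (4.35-fold). Errfi1, a feedback inhibitor of the EGF receptor, read 13626, 3493 and 4610 (3.90-fold), and all 4 of its probe sets were above 2-fold. The newborn array was the high one in each case. Glul, glutamine synthetase, read 3055, 797 and 838 (3.83-fold), with its 5 probe sets between log2 0.68 and 1.94. Klf9, a Krueppel-like transcription factor, read 3379, 930.0 and 687 (3.63-fold), with probe sets from log2 0.30 to 2.32. Pdk4, the kinase that shuts off pyruvate dehydrogenase, was at 768 in the newborn and under the floor in the oxygen and fetal ductus (at least 3.16-fold).

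Further members followed with smaller folds. Nfkbia, the inhibitor of NF-kappaB, read 2312 in the newborn, 779.6 in the oxygen and 871 in the fetal ductus (2.97-fold), with probe sets from log2 0.12 to 1.84. Ddit4, an inhibitor of mTORC1, read 970.5, 342 and 503 (2.84-fold). Sgk1, a kinase that governs ion channels, read 405, 188 and 248 (2.15-fold), and Tsc22d3 (GILZ), an anti-inflammatory leucine zipper protein, 1215, 656 and 483 (1.85-fold). The receptor gene Nr3c1 itself had about the same signal in all 3 states (458, 447 and 439.9), and Hsd11b1, which regenerates active hormone, read 253, 195 and 141. Cdkn1c, the cell cycle inhibitor p57, was the member farthest in the other direction, at 2653 against 8360 and 7370 (3.15-fold lower). One of its 2 compared probe sets was however at log2 0.62. The aorta gave a similar contrast for Cdkn1c at this probe set, with 3264 in the newborn and 9458 in the fetus.

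Immediate early genes, which cells switch on within minutes of a stimulus, were also higher. Of 31 compared, 19 were at least 1.5-fold higher and 1 was lower, beside 10.4% and 14.6% of all genes. Their median log2 ratio was 0.78, against -0.04 for oxygen over fetal ductus. Klf2, the flow-responsive factor of endothelium, read 1336 in the newborn, 314 in the oxygen and 479.9 in the fetal ductus (4.25-fold). Its 2 compared probe sets were at log2 0.96 and 2.09. Atf3, a stress-induced bZIP factor, read 577, 191 and 173 (3.01-fold). Fos read 2165, 740.1 and 931 (2.93-fold) and its 5 probe sets all lay above log2 1.5. The oxygen signal of Fos was under the fetal one, and that of Atf3 was above it.

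Other factors of this list had the newborn as the highest ductus state as well. Junb, a partner of Fos, was at 444 in the newborn, 179.5 in the fetal ductus and under the floor in the oxygen ductus (at least 2.97-fold against oxygen). Jun read 916, 517 and 778 (1.77-fold), so here the newborn was not far above the fetal ductus. Klf4 read 1373, 517 and 531 (2.66-fold), and the orphan nuclear receptor Nr4a1 1066, 436 and 488 (2.45-fold). Egr1, a zinc finger factor of growth and injury responses, read 4198, 2447 and 2139 (1.72-fold). Mafk alone was at least 1.5-fold lower (691, 1094 and 964), with its 2 probe sets at log2 -0.66 and 0.36, and Ccn1 (CYR61), a matrix-associated signalling protein, stood apart with a fetal signal of 3788 against 1248 in the newborn and 1666 in the oxygen ductus.

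**Figure D3:**
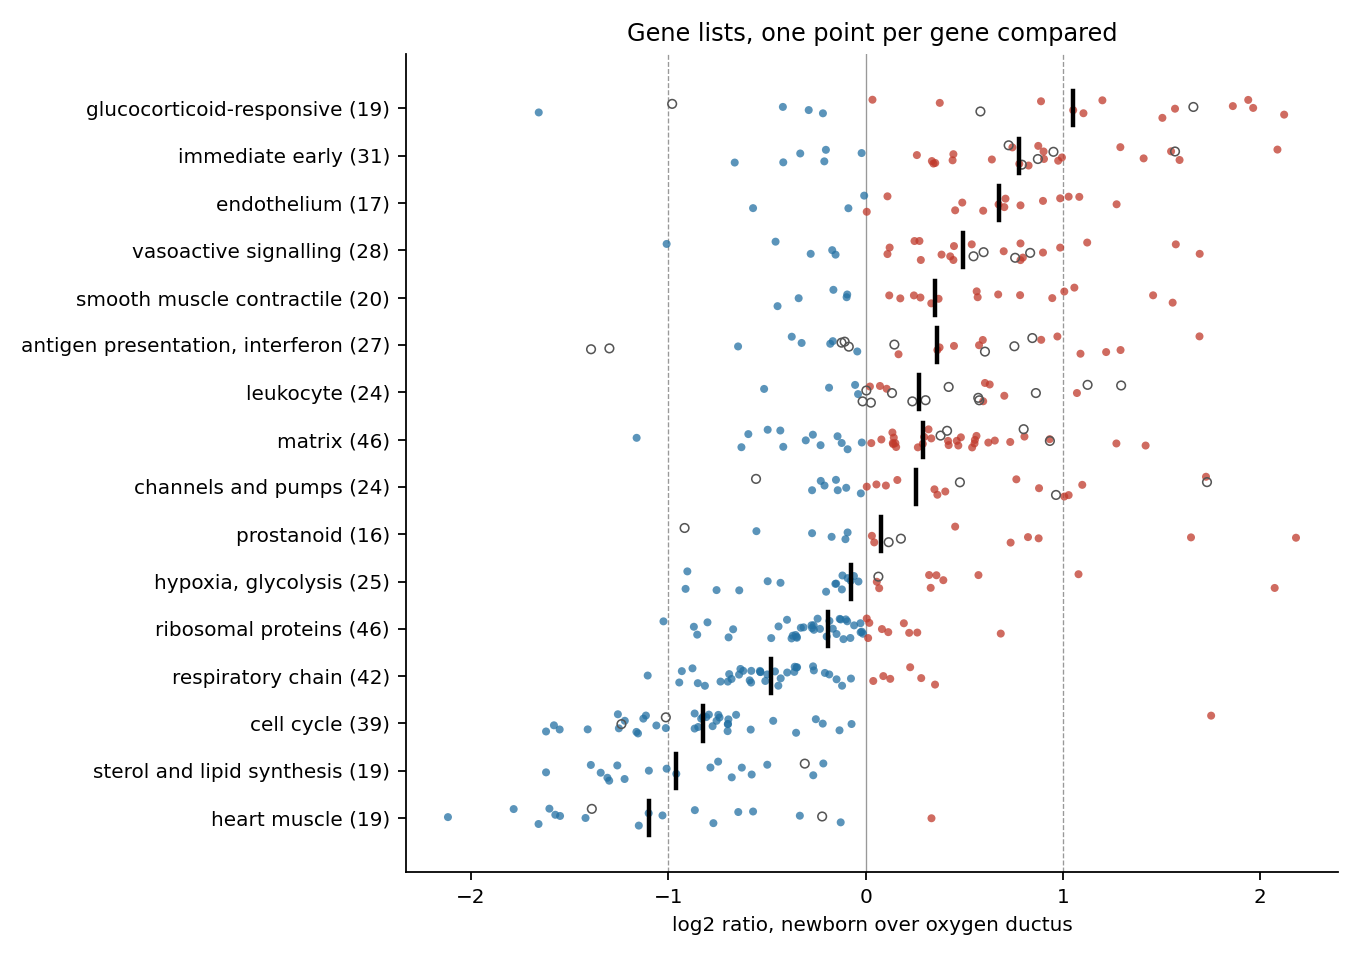
Each point is a gene of the list named at the left (number of genes compared in parentheses), placed by its log2 ratio of newborn over oxygen ductus. Filled points have both arrays above the floor (red higher in the newborn, blue lower), open circles have 1 side at the floor and are bounds, and the black bar is the median, which runs from 1.05 for glucocorticoid-responsive genes to -1.10 for heart muscle genes.

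Genes of prostanoid synthesis and action, the system that keeps the fetal ductus open, (16 compared) had a median log2 ratio of 0.08. At least 1.5-fold higher were 5 and lower 1, beside 10.4% and 14.6% of all genes. Among the enzymes, Ptgs1 (cyclooxygenase 1) read 716 in the newborn, 430.5 in the oxygen and 368 in the fetal ductus (1.66-fold). Ptgs2 (cyclooxygenase 2) was at 162, barely over the floor, in the newborn and under it in the other two. Ptges, which makes prostaglandin E2, read 633, 462 and 573 (1.37-fold), and Ptgis, which makes prostacyclin, 4845, 4701 and 3808. Apart from Alox15, the largest member was Pla2g2a, a secreted phospholipase, at 604, 193 and 142 (3.14-fold). Anxa1, a glucocorticoid-regulated inhibitor of phospholipase, read 2126, 1158 and 948 (1.84-fold).

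The prostaglandin receptor genes described here and the degrading enzyme Hpgd gave little signal, and the transporter Slco2a1 gave more. Ptger4, the dilator receptor EP4, was under the floor in all 3 states (120.0, 124 and 145), so no ratio could be formed. Ptger3 was at 283 in the oxygen ductus and under the floor in the newborn (at least 1.89-fold lower). Slco2a1, the transporter that takes prostaglandin E2 up for breakdown, read 969, 1169 and 1140 (1.21-fold lower). Its 2 probe sets disagreed, at log2 -0.27 and 1.04, and their mean turned the direction, to 0.38. Hpgd was under the floor throughout. Whether the receptor genes and Hpgd are low or their probe sets are weak cannot be read from signals under the floor.

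Among 28 signalling genes that contract or relax vessels, 12 were at least 1.5-fold higher in the newborn and 1 was lower, beside 10.4% and 14.6% of all genes. The median log2 ratio was 0.49, and 0.20 with the floor at the upper quartile of the chip. Of the ligands and their enzymes, Edn1, the constrictor peptide endothelin 1, read 672 in the newborn, 389.7 in the oxygen and 413 in the fetal ductus (1.72-fold). Ace, which makes angiotensin II, read 450.0, 241 and 235 (1.87-fold), and Nos3, the endothelial nitric oxide synthase, 466, 235 and 354 (1.98-fold). Of the receptors, Agtr1a read 1418, 823 and 692 (1.72-fold) and Agtr2 827, 614 and 594 (1.35-fold, probe sets from log2 0.43 to 1.28). The endothelin receptor gene Ednra was not represented by a probe set of its own. For each of these the newborn signal was the highest of the 3.

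Among the genes further down the pathway, Ppp1r12a, the targeting subunit of myosin phosphatase, read 1527 in the newborn, 472 in the oxygen and 611 in the fetal ductus (3.23-fold). Pde5a, the cyclic GMP phosphodiesterase of smooth muscle, read 459, 154 and 370.3 (2.97-fold), so that most of its difference lay between oxygen and fetal ductus. Pde4b, which degrades cyclic AMP, read 1094, 503 and 447 (2.18-fold), and Rgs5, a brake on G protein signalling in arterial muscle, 20994, 12081 and 9334 (1.74-fold). The exception was soluble guanylate cyclase, the nitric oxide receptor. Its beta subunit Gucy1b1 read 648, 1304 and 1176 (2.01-fold lower) and its alpha subunit Gucy1a1 1237, 1697 and 1517 (1.37-fold lower).

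Ion channels and pumps (24 compared) had a median log2 ratio of 0.26. At least 1.5-fold higher were 8 and lower 0, beside 10.4% and 14.6% of all genes. Over the alternative settings the median ran from 0.13 to 0.40. Besides Kcnd3, the largest was Orai1, the pore of store-operated calcium entry, at 546 in the newborn, 165 in the oxygen and 305 in the fetal ductus (3.31-fold). The pair that forms the vascular ATP-sensitive potassium channel was higher, with Kcnj8 at 845, 498 and 507 (1.70-fold) and its partner Abcc9 at 821, 402 and 510.2 (2.04-fold). Kcnk3, an acid- and oxygen-sensitive background potassium channel, read 575, 269 and 375 (2.14-fold), and Kcnmb1, the smooth muscle subunit of the large calcium-activated potassium channel, 1648, 819.6 and 1090.0 (2.01-fold). Kcna5, an oxygen-sensitive voltage-gated channel of the ductus, read 335, 260.1 and 299 (1.29-fold). Cacna1c, the pore of the L-type calcium channel, was nearly level at 562, 541 and 512.

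Contractile genes of smooth muscle (20 compared) had a median log2 ratio of 0.35. The counts at 1.5-fold were 7 higher and 0 lower, beside 10.4% and 14.6% of all genes. Acta2, smooth muscle alpha-actin, read 30805 in the newborn, 15987 in the oxygen and 20532 in the fetal ductus (1.93-fold), with its 4 probe sets between log2 -0.02 and 1.33. Myh11, the smooth muscle myosin heavy chain, read 8143, 5512 and 5415 (1.48-fold), with 3 probe sets from log2 0.56 to 2.61. Itga8, an integrin of smooth muscle, read 2863, 1043 and 1042 (2.74-fold), and Synpo2, an actin-bundling protein, 6009.8, 2989.6 and 2966 (2.01-fold). Des (desmin) read 1446, 694 and 423 (2.08-fold), with the oxygen ductus itself above the fetal one. Cald1 (caldesmon) read 1515, 515 and 1622, so its 2.94-fold difference lay in the oxygen array. Flna, Vcl and Cnn1 were slightly lower in the newborn, by 1.36, 1.27 and 1.12-fold, and the 2 probe sets of Vcl disagreed (log2 -0.34 and 0.43). The list's oxygen-over-fetal median was 0.15 and its newborn-over-fetal median 0.58.

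Of 17 endothelial genes compared, 10 were at least 1.5-fold higher and 0 lower, beside 10.4% and 14.6% of all genes. The oxygen-over-fetal median was 0.01, and the median log2 ratio of newborn over oxygen ductus 0.67. With the floor at the upper quartile of the chip the median was 0.32. Selp (P-selectin) read 477 in the newborn, 198 in the oxygen and 249 in the fetal ductus (2.41-fold), Egfl7 2018, 953 and 918 (2.12-fold), and Thbd (thrombomodulin) 2248, 1102 and 1395 (2.04-fold). The junction genes differed less. Pecam1 read 2030, 1445 and 1323 (1.40-fold), Cdh5 (VE-cadherin) 1550, 1558 and 1434 (4 probe sets from log2 -0.01 to 0.62), and Cldn5 1623, 2409 and 1229 (1.48-fold lower). The summed signal of the list was 20460 in the newborn, 15229 in the oxygen and 13647 in the fetal ductus. In whole vessel RNA, a larger share of a cell type and more RNA per cell cannot be told apart.

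Matrix genes (46 compared) had a median log2 ratio of 0.29. The counts at 1.5-fold were 9 higher and 3 lower, beside 10.4% and 14.6% of all genes. Sparc, a collagen-binding glycoprotein, read 26399 in the newborn, 9871 in the oxygen and 14670.0 in the fetal ductus (2.67-fold), with 7 probe sets between log2 0.24 and 1.42. Col14a1 read 4937, 2045 and 1654 (2.41-fold, probe sets from log2 0.27 to 1.27). Eln (elastin) read 27373, 21940 and 25913 (log2 ratio 0.32), so the newborn and fetal arrays were closer to each other than to the oxygen array. Fbn2, the fetal fibrillin, went the other way at 3787, 8464 and 7843 (2.24-fold lower). Of the matrix proteases, Adamts1 read 4325, 1746 and 1824 (2.48-fold). Among growth factor and Notch genes the median was 0.04 over 38, and Jag1, a Notch ligand needed for ductus smooth muscle to mature, read 546, 1166 and 1025 (2.13-fold lower). Tfap2b, a transcription factor whose loss keeps the ductus open, was level at 414, 399.6 and 330.1.

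Genes of DNA replication and mitosis were lower in the newborn. Of 39 compared, 31 were at least 1.5-fold lower and 1 higher, beside 14.6% and 10.4% of all genes. The median log2 ratio was -0.82. Mki67, the proliferation marker Ki-67, read 1727 in the newborn, 5159 in the oxygen and 4200 in the fetal ductus (2.99-fold lower). Cdc20, which activates the anaphase-promoting complex, read 382, 1174 and 1054 (3.07-fold lower), with its 2 probe sets at log2 -1.62 and -0.37. Rrm2, the small subunit of ribonucleotide reductase, read 753, 2206 and 1579 (2.93-fold lower), but its 3 probe sets ran from log2 -1.55 to 0.63. Of the subunits of the replicative helicase, Mcm5 was 2.65-fold lower, Mcm3 2.39-fold, Mcm6 2.33-fold, Mcm2 1.82-fold, Mcm7 1.75-fold and Mcm4 1.28-fold. The oxygen array was the highest of the 3 for Mki67, Cdc20 and Rrm2, and the list's oxygen-over-fetal median was 0.17 and its newborn-over-fetal median -0.63.

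The mitotic kinases and cyclins followed. Aurka read 554 in the newborn, 1118 in the oxygen and 847 in the fetal ductus (2.02-fold lower), Plk1 855, 1428 and 1428 (1.67-fold lower) and Ccnb1 589.7, 956 and 898 (1.62-fold lower). Ccnb2 read 1737, 3886 and 2021 (2.24-fold lower), so its difference lay mostly between the oxygen and fetal arrays. The G1 cyclins Ccne1 and Ccne2 differed little (1.16 and 1.10-fold lower). Outside the list, the centromere protein gene Cenpn read 289, 1289.7 and 785 (4.45-fold lower) and Cdca7, a Myc target of proliferating cells, 466, 1558 and 1104 (3.34-fold lower). Cdc25b, a phosphatase that starts mitosis, was the exception at 3039, 903 and 1251 (3.37-fold higher), and the 4 of its probe sets compared lay between log2 1.55 and 2.95.

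The promoters of these genes hold letters known from cell cycle genes, shown here because so many members differed in 1 direction. RefSeq promoters (250 bases before to 50 after the start, build GRCr8) were given for 32 of the 39. The CCAAT box (CCAAT, bound by NF-Y, either strand) was found in 24 of 32, against 38.6% of the promoters of all genes compared and 37.5% of all promoters. The cell cycle homology region, CHR (TTTGAA, either strand), was found in 14 of 32 (43.8%) against 10.5% and 18.3%. The stretches with the matches are printed 5' to 3' on the gene's strand, with the matches in capitals, for Cdc20 (chr5:137255821-137255900, minus strand) and Mki67 (chr1:199952668-199952797, minus strand).
Cdc20: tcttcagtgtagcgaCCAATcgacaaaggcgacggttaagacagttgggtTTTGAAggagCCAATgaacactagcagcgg
Mki67: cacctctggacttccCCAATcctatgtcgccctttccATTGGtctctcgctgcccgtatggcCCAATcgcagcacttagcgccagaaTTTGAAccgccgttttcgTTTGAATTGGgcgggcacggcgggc
In Cdc20 the CHR begins 51 bases before the gene start, between CCAAT boxes that begin 86 and 41 bases before it. In Mki67 matches to the CHR begin 117 and 99 bases before the start, and the second overlaps a CCAAT box on the other strand. Motif and genes were picked with the expression values known, and a match is a description of the letters.

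Sterol and lipid synthesis genes were lower in the newborn without exception in direction. All 19 genes compared had a log2 ratio below 0, and the median was -0.96. At least 1.5-fold lower were 14, beside 14.6% of all genes. The oxygen-over-fetal median was 0.01. Msmo1, a sterol methyl oxidase, read 687 in the newborn, 2108 in the oxygen and 1794 in the fetal ductus (3.07-fold lower), with both probe sets alike. Mvd, mevalonate decarboxylase, read 164, 429 and 469 (2.62-fold lower), Sqle, squalene epoxidase, 407, 1008 and 1094 (2.48-fold lower) and Dhcr7, the last enzyme of cholesterol synthesis, 205, 505 and 554 (2.46-fold lower). In these genes the oxygen and fetal arrays were near each other and the newborn was low. The fatty acid enzymes Fasn (621, 1486 and 1024, 2.39-fold lower) and Acaca (728, 1416 and 1291, 1.94-fold lower) and the regulator Srebf2 (1277, 2043 and 1740.2, 1.60-fold lower) went along at their brightest probe sets, while the 3 probe sets of Fasn ran from log2 -1.26 to 0.58. Insig1 (1.16-fold) and Fdft1 (1.20-fold) differed least.

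RefSeq promoters were given for 15 of these 19 genes, and the 2 printed belong to the members with the largest folds that had one. The CCAAT box was found in 12 of 15 (80.0%) and the GC box (GGGCGG, bound by Sp1, either strand) in 13 of 15 (86.7%), against 38.6% and 65.1% of the promoters of all genes compared. The sterol element SRE-1 (TCACNCCAC, either strand) was found in 0 of 15, against 1.05% of the promoters of all genes compared. At that share 15 promoters would mostly hold none, so the 0 cannot be read as a lack of sterol elements. The printed stretches, CCAAT and GC boxes in capitals, are from Msmo1 (chr16:29746925-29747104, plus strand) and Mvd (chr19:67414990-67415142, minus strand).
Msmo1: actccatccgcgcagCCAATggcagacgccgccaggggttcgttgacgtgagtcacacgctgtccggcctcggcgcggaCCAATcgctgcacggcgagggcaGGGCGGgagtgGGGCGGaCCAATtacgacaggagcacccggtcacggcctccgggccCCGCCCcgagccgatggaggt
Mvd: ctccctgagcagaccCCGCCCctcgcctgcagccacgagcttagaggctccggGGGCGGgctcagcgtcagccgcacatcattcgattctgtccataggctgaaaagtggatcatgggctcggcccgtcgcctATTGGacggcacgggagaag

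Heart muscle genes gave the lowest median of the lists plotted, -1.10 over 19 genes. At least 1.5-fold lower were 14 and higher 0, beside 14.6% and 10.4% of all genes. Tnnt2, cardiac troponin T, read 554 in the newborn, 2402 in the oxygen and 2343 in the fetal ductus (4.33-fold lower). Myl7, the atrial myosin light chain, read 1099, 3467 and 4127 (3.15-fold lower), and Myl2, the ventricular one, 248, 852 and 1406 (3.44-fold lower, 3 probe sets from log2 -1.78 to -0.45). Myh6 and Myh7, the alpha and beta heavy chains, were 2.04 and 2.67-fold lower, with the 5 probe sets of Myh6 from log2 -1.03 to 0.29, and Actc1, cardiac actin, was 2.22-fold lower (3190.4, 7077 and 9619.9). Nppa, the atrial natriuretic peptide precursor, read 435, 1293 and 630.2 (2.97-fold lower), with the oxygen array the highest.

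The summed signal of all 23 heart muscle genes on the chips was 20904 in the newborn, 40291 in the oxygen and 42411 in the fetal ductus, and 27855 and 20593 in the newborn and fetal aorta. Mb (myoglobin), Ckmt2 and Ryr2 were under the floor on all 3 ductus arrays. In the aorta the newborn-over-fetal median of the list was 0.36, the other way from the ductus. Skeletal muscle genes had a median of 0.23 over 10, and 0.09 to 0.24 over the alternative settings. How much heart tissue each ductus sample held was not measured, and its part in these differences was not tested.

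Among 15 red cell genes compared, 4 were at least 1.5-fold higher and 4 lower, beside 10.4% and 14.6% of all genes. The embryonic globins Hbe1 and Hbz were lower in the newborn, and the adult beta globin Hbb was higher by less than 1.5-fold. Hbe1, the embryonic epsilon globin, read 261 in the newborn, 6456 in the oxygen and 6741 in the fetal ductus, 24.8-fold lower and the widest difference of any gene named here. Hbz, the embryonic zeta globin, was at least 2.94-fold lower. The adult beta globin Hbb read 37666, 25218 and 26242 (1.49-fold higher), and Alas2, the first enzyme of red cell haem synthesis, 8346, 2844 and 2369 (2.93-fold higher). Hbe2, listed as another epsilon globin, went the other way from Hbe1, at 541, 245 and 489 (2.21-fold higher). Globin genes are close relatives, so a probe set may read more than 1 of them. The list's median over 15 genes was 0.21 while its mean was -0.16, with Hbe1 the lowest member, and the median ran from 0.01 to 0.41 over the alternative settings. In the aorta Hbe1 read 328 in the newborn and 17355 in the fetus.

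Of 42 respiratory chain genes, 14 were at least 1.5-fold lower in the newborn and 0 higher, beside 14.6% and 10.4% of all genes. In all 36 had a log2 ratio below 0 and 6 one above, and the median was -0.48. The oxygen arrays took part in this, since the oxygen-over-fetal median was 0.26 and the newborn-over-fetal median -0.19. Atp5po, a subunit of ATP synthase, read 2499 in the newborn, 5371 in the oxygen and 3615 in the fetal ductus (2.15-fold lower, probe sets from log2 -1.10 to -0.06), and Cox7c, of cytochrome oxidase, 6759, 11246 and 6564 (1.66-fold lower, probe sets at log2 -0.74 and 0.17). For Cox7c the newborn and fetal arrays were alike and the oxygen array was high. The ribosomal protein list behaved in a like manner, with a median of -0.19 over 46 genes, an oxygen-over-fetal median of 0.19 and a newborn-over-fetal median of 0.01. In the aorta the newborn-over-fetal medians were 0.25 and 0.05.

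Genes of hypoxia and glycolysis (25 compared) had a median log2 ratio of -0.07. The counts at 1.5-fold were 2 higher and 4 lower, near the 10.4% and 14.6% of all genes. Beside Bnip3, Hk2 (hexokinase 2) was higher at 610.1 in the newborn, 289 in the oxygen and 565 in the fetal ductus (2.11-fold, probe sets from log2 0.17 to 1.08). Pfkm, Gpi, Egln1 and Slc2a3 were lower, by 1.88, 1.87, 1.69 and 1.56-fold. The 2 probe sets of Pfkm disagreed (log2 -0.91 and 0.72), as did those of Slc2a3 (-0.64 and 0.51). Hif1a was under the floor at its brightest probe set, and 1 of its 3 probe sets could be compared, at log2 0.24. Antioxidant genes had a median of 0.07 over 32. Sod3, the extracellular superoxide dismutase, read 1383, 651 and 660.2 (2.13-fold), Hmox1, haem oxygenase 1, 549, 310 and 425 (1.77-fold, probe sets from log2 0.10 to 0.82), while the peroxiredoxins Prdx1 and Prdx4 were 1.65 and 1.71-fold lower. Both medians lay near that of all genes.

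Antigen presentation and interferon genes had a median of 0.36 over 27, and 0.19 after quantile normalisation. At least 1.5-fold higher were 10 and lower 3, beside 10.4% and 14.6% of all genes. B2m, the light chain of class I molecules, read 4582 in the newborn, 1872 in the oxygen and 2136 in the fetal ductus (2.45-fold), and the class I gene RT1-CE16, whose relatives may share its probes, 2634, 1238 and 1246 (2.13-fold). Rsad2, an interferon-induced antiviral enzyme, read 568, 176 and 113 (3.23-fold), whereas Oas1a and Usp18, also interferon-induced, were lower (at least 2.62-fold and at least 2.46-fold). The interferon-induced members thus went both ways.

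Markers of other cells that a dissected vessel can hold were mostly weak. Leukocyte genes had a median of 0.27 over 24 genes, 12 of them with 1 side at the floor (0.09 to 0.60 over the alternative settings), and a summed signal of 12330 in the newborn, 8510 in the oxygen and 7612 in the fetal ductus. Lyz2 (lysozyme) read 1137, 541 and 640.5 (2.10-fold) and Cma1 (mast cell chymase) at least 2.18-fold higher, while Ptprc (CD45) was nearly level at 178, 165 and 178. Fat genes had a median of 0.67 over 7, led by Car3 at 948 in the newborn and under the floor in the oxygen ductus (at least 3.90-fold). In the aorta the newborn-over-fetal median of the fat list was 1.59. Epithelial and airway genes had a median of 0.58 over 8 genes, 4 of them with 1 side at the floor, and the median was -1.11 with the floor at the upper quartile of the chip. The part of such cells in the results above was not tested.

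**Figure D4:**
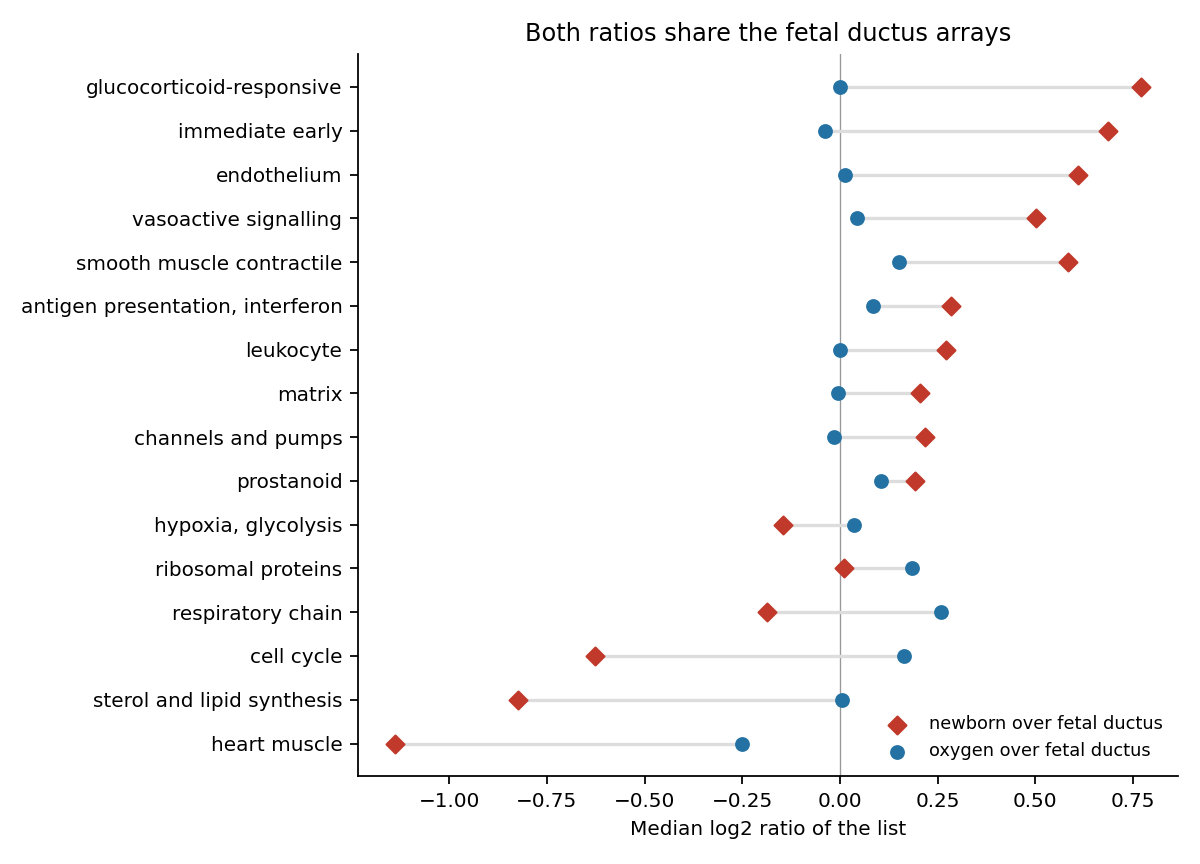
For 16 lists the median log2 ratio of newborn over fetal ductus (red diamonds) and of oxygen over fetal ductus (blue circles) is plotted over the genes compared. Both ratios use the same fetal arrays, so the markers are not independent. The newborn markers run from 0.77 for glucocorticoid-responsive genes to -1.14 for heart muscle, and the oxygen markers from 0.26 for the respiratory chain to -0.25 for heart muscle.

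Some genes set the oxygen ductus apart from both other states. Bysl, a ribosome assembly factor, read 151 in the newborn, 1058 in the oxygen and 288 in the fetal ductus, and Cenpt, a centromere protein, 225, 1112 and 329.8 (probe sets at log2 -2.20 and -0.35). Nppa belongs here too, and so do Commd7, Rabl6, Vcf1, Cep164 and Ppp1r35, whose oxygen signals were at least 2-fold above both others. In the other direction stood Tppp3, a tubulin-binding protein, at 1219, 278 and 857, and Tpp1, a lysosomal peptidase, at 1755, 588 and 1707. Gask1b, Kat14, Hipk1, Dclk1 and Mat2a had oxygen signals between 2.31 and 2.92-fold under the nearer of the other states at their brightest probe sets. Other probe sets of Kat14, Dclk1 and Commd7 differed less between newborn and oxygen ductus, down to log2 0.24, 0.18 and -0.10. Differences between newborn and oxygen ductus in these genes do not separate newborn from fetal ductus.

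Newborn and oxygen ductus were both at least 2-fold from the fetal ductus, and within 0.32 of each other on the log2 scale, for 2 genes above and 2 below (0.0543% each of the 3682 genes eligible). Over the 7541 genes compared, oxygen against fetal ductus gave 36 and 57 genes at least 2-fold apart. Genes above the floor only in the fetal ductus were not counted here. Dbndd2 read 711 in the newborn, 705 in the oxygen and 302 in the fetal ductus, and Phf1, a chromatin reader, 649.9, 568 and 62.3. The fetal signal of Phf1 was under the floor of 242. Nudcd2 read 336, 389.9 and 898, and Hdhd5 541, 520.3 and 1083. The 2 compared probe sets of Hdhd5 were at log2 0.055 and 0.833 for newborn over oxygen ductus, so only the brighter was alike.

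**Figure D5:**
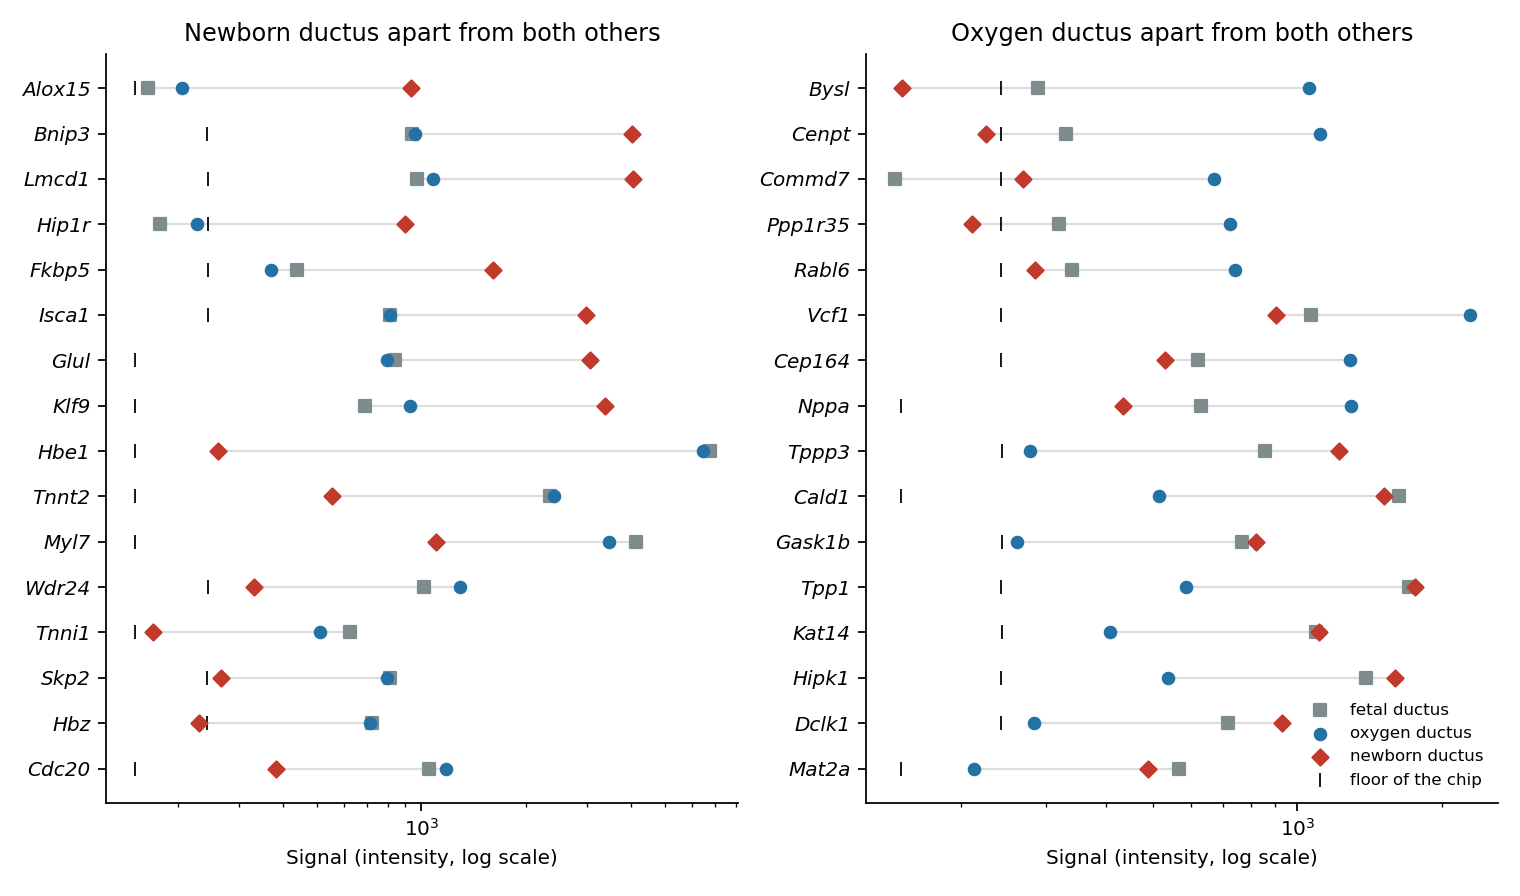
Signals in the newborn (red diamond), oxygen (blue circle) and fetal ductus (grey square) are plotted on a log scale for genes where the newborn ductus stood apart (left) and where the oxygen ductus stood apart (right), with the floor of the chip as a tick. On the left the blue and grey markers lie nearer to each other than to the red one, and on the right the red and grey markers lie nearer to each other than to the blue one.

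The aorta arrays, which the comparison did not use, gave the newborn-over-fetal ratio of another vessel. For the 192 genes at least 2-fold higher in the newborn ductus than in the oxygen ductus, the aorta ratio was above 0 for 147 and below 0 for 42, with a median log2 ratio of 0.40. It was at least 2-fold up for 38 and at least 2-fold down for 1. For the 243 genes lower in the newborn ductus, the aorta ratio was below 0 for 194 and above 0 for 42, with a median of -0.42, at least 2-fold down for 36 and at least 2-fold up for 5. Over all 7541 genes the aorta median was -0.03, with 3224 above and 4017 below 0. Of these 7541, 149 were at least 2-fold up and 199 at least 2-fold down in the aorta.

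By list, the aorta medians were 0.50 for glucocorticoid-responsive genes, 0.55 for immediate early genes, 0.44 for smooth muscle, 0.41 for endothelium, -0.53 for the cell cycle and -0.84 for sterol synthesis, each on the side seen in the ductus. Glul read 3522 in the newborn and 1584 in the fetal aorta, Nupr1 1566 and 300, and Msmo1 888 and 2750.4. Fkbp5 differed less there, at 511 and 347. Heart muscle and respiratory chain genes went the other way in the aorta, and matrix genes had a median of 0.02.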

How the data were processed

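The deposited tables hold linear signal intensity per probe set, 1 column per array. The submitters' processing notes give MAS5 as the software of 4 chip A arrays; for the fetal aorta of chip A and all of B and C it is not given in the sources used here. No depth exists for arrays, and their number limits the precision.

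Without controls there were 26202 probe sets. Of these, 18178 were assigned to 1 gene by the platform annotation, 391 to several and 7633 to none. By gene number 18122 were found in the RefSeq table of GRCr8 and 56 were not. The floor was the median signal of a chip over its 5 arrays, and lower signals were raised to it before log2. Ratios were formed within a chip with Python 3.11.15 and pandas 2.3.3, and the same functions were run on simulated data. The simulated noise was smaller than the spread between probe sets here, and no 5' loss was simulated. That run checks the code and not the error of these ratios.

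The 34 gene lists, the naming rules and the printed motifs were chosen with earlier results of these data known. Picked by rule were up to 12 genes each way by fold and up to 6 with 1 side at the floor. Up to 8 each way set 1 state apart from both others or 2 apart from the fetal ductus. The brightest array of these genes reached the 75th percentile of its chip. Their compared probe sets all went the same way but were not always alike in size. The rules also gave the 4 most different members of a list and 16 genes usual in ductus work. Not all of these are described above, and further list members were added after their values were seen. Alternatives were 2 other floors, an added constant, quantile and median scaling, the mean of a gene's probe sets and a floor on both arrays.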

Additional observations from a re-analysis of the deposited data

How the results depend on the processing

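The counts of genes at least 2-fold apart depended on the floor. They were 521 higher and 450 lower with the floor at the 25th percentile, 82 and 91 at the 75th, and 100 and 93 with the chip median added in place of a floor, against 192 and 243. The floor sets which genes are compared, 9714 at the 25th and 4440 at the 75th percentile against 7541. With the added constant the same 7541 genes were compared, so there the ratios themselves changed. For newborn against fetal ductus over the same 7541 genes, an alternative added after seeing the data, the counts were 135 and 131. Quantile and median scaling, the mean of a gene's probe sets and a floor on both arrays gave 162 to 213 higher and 185 to 242 lower. The share of these genes that were higher was 44.1%, 41.0% under quantile and 48.7% under median scaling. The tolerance for a list was the probe set error of a ratio, as given above, over the root of the list size. It holds no variation between animals or RNA samples. Of 238 list medians under the 7 alternatives, 179 stayed within it, 56 moved and 3 whose main median was at least 0.3 in size changed sign. Those were nerve genes at -0.075 (mean of probe sets), epithelial and airway genes at -1.109 (75th percentile) and mesothelial genes at 0.016 (added constant); the cause was not tested. Another 3 values, of lists nearer to 0, also crossed it: heat shock genes at 0.019 (mean of probe sets) and growth factor genes at -0.01 (75th percentile) and -0.014 (quantile). Of 1174 gene values, 1048 stayed within the probe set error of a ratio and 125 moved beyond it. With the floor at the 75th percentile Alox15 fell from log2 2.181 to 0.932 and Klf2 from 2.087 to 1.086. Nupr1 fell from 1.935 to 1.061 and Kcnd3 from 1.73 to 0.024 at that floor. Bnip3, Errfi1 and Glul kept their ratios there. Large folds of genes with a dim oxygen signal thus depend on the floor. Of genes at least 1.5-fold apart 1 changed sign, Uchl1, to -0.56 (mean of probe sets). Below that, 3 more crossed 0: Slco2a1, to 0.383 (mean of probe sets), Eln, to -0.115, and Tfap2b, to -0.024 (both quantile). The tolerance and the median of 0.3 from which a list was followed were set with values known. No paired analysis was possible because each state had 1 array per chip. Signal over background limits dim genes: a gene under the floor on both arrays gave no ratio.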

Other observations

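Insulin-like growth factor genes, not described above, numbered 13, with a median log2 ratio of 0.21 (0.12 to 0.37 over the alternative settings). Igf1 read 1247 in the newborn, 2295 in the oxygen and 3144 in the fetal ductus (1.84-fold lower), and its 6 compared probe sets ran from log2 -1.25 to 0.89. The binding proteins Igfbp4 (3289, 1586 and 1715, 2.07-fold), Igfbp6 (1546, 822 and 1003, 1.88-fold) and Igfbp7 (9129, 4817 and 4773, 1.89-fold) were higher. In the aorta Igf1 read 1724 in the newborn and 5320 in the fetus.

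Amino acid stress genes (27 compared) had a median log2 ratio of -0.07. The counts at 1.5-fold were 4 higher and 6 lower, beside 10.4% and 14.6% of all genes. Chosen after their values were seen, 3 members that make serine or pass on its carbon had lower signals, with Psat1 at 253, 764 and 589 (3.02-fold lower), Shmt2 at 415, 818 and 697 (1.97-fold lower) and Phgdh at 614, 1056 and 1204 (1.72-fold lower). Atf4, their usual regulator, read 4834, 2494 and 3343 (1.94-fold higher). Psat1 and Phgdh did not follow in the aorta, where they read 956 in the newborn against 510 in the fetus and 1130 against 1134. Among the clock genes Nr1d1 was at least 2.07-fold higher. Gal, the neuropeptide galanin, read 629.7, 278 and 209.6 (2.27-fold higher).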
